A study of Mus musculus with 8 samples.

Results

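The comparison described here sets 2 arrays of MBA-15 stromal cells taken out of co-culture with DA3 carcinoma cells against 2 arrays labelled as MBA-15 cells grown alone, 4 of the 8 mouse arrays of the series. MBA-15 is a mouse stromal line of pre-osteoblastic character, and DA3 is a mouse mammary adenocarcinoma line. For the co-culture, DA3 cells at 13000 per cm2 were added onto an MBA-15 monolayer seeded at 20000 per cm2. After 24 h, as the sample descriptions give it, the fractions were parted with magnetic particles carrying an antibody to EpCAM, a surface protein of epithelial cells. The co-culture group is thus the fraction not held by the magnet, and it can keep any DA3 cell that lost or lacked EpCAM. The growth protocol describes the controls as separately grown single cultures kept at the same confluence, whereas the descriptions of the arrays labelled alone carry the word "mix", which the labels do not explain. Since the labels name no separate cultures behind the 2 arrays of a group, the p-values below reflect the spread between samples that may be technical repeats.

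The arrays labelled alone held a high level of DA3 transcripts, so the comparison was read on the following sets of genes. In the first, DA3 transcripts move the values little, but they also draw the arrays labelled alone towards co-culture. A change in MBA-15 cells would then read smaller there. In the second, the arrays labelled alone lay outside the values of co-culture and DA3 alone. The first set, called matched genes, comprised the 14363 of 19938 genes whose mean in DA3 alone lay within 0.5 on the log2 scale of the mean in MBA-15 co-culture. The second set comprised genes for which both arrays labelled alone lay outside the span of all 4 arrays of MBA-15 co-culture and DA3 alone, 277 above it and 1535 below it. All values are log2 expression, on which a difference of 1 is a doubling, and a change is co-culture minus labelled alone. The array medians lay between 4.479 and 4.642, and 4276 of the matched genes reached a mean of 5.5 over the MBA-15 groups, the level required here for naming a gene by rank.

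Bone marrow stromal cells make and remodel the collagen matrix of the marrow, support blood formation and can mature into osteoblasts. Breast carcinoma cells often settle in bone, where stromal cells meet them through direct contact, growth factors, cytokines and matrix. The study's title names this functional interaction as its question. Replication-dependent histones, immediate early genes, stress response genes and matrix proteases, all described below, are gene groups known to shift quickly with growth state or stress.

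Epcam, the gene targeted by the separation, went against the label. It was at 5.58 and 5.19 on the co-culture arrays, 8.45 and 9.25 on the arrays labelled alone, and 9.57 and 9.46 on the DA3 alone arrays. Both arrays labelled alone therefore lay nearer to DA3 than to co-culture. The change was -3.46 ± 0.27 (SE, n = 2 against 2), with a limma adjusted p of 0.00713 after Benjamini-Hochberg adjustment. That adjusted p from limma became 0.0693 without co-culture array 2 and 0.0602 in a fit of the 4 MBA-15 arrays alone. The mean of 27 epithelial markers was 4.62 and 4.54 in co-culture, 6.74 and 7.21 in the arrays labelled alone and 7.89 and 7.80 in DA3 alone. The mean of 27 stromal markers was 7.36 and 7.15, 6.95 and 6.96, and 4.89 and 4.96 in the same order. Thus the arrays labelled alone held stromal transcripts together with epithelial ones. The summed linear level of the stromal list was 16745 and 11588 in co-culture and 11415 and 11624 in the arrays labelled alone, so only the first arrays differed clearly. The summed linear level of the epithelial list was 818 and 747 in co-culture and 5881 and 7593 in the arrays labelled alone. In bulk RNA, fewer cells of a type and less RNA per cell cannot be told apart. Between 18 and 19 of 20 leukocyte markers and between 13 and 14 of 16 endothelial markers lay below the median gene of the array on all 8 arrays. Of the osteoblast genes measured, Col1a1, the main collagen chain of bone, was at 11.41 and 10.31 in co-culture. Sp7, a transcription factor of osteoblasts, was at 4.58 and 4.11, and Ibsp, a matrix protein of mineralising bone, at 4.12 and 4.19. These were near or below the medians of those arrays, 4.627 and 4.578. Other members of the list lay above those medians in co-culture, with Omd at 5.49 and 5.97 and Bmp4 at 6.35 and 6.11. Sparc was brighter, at 11.49 and 11.09. On the arrays labelled alone Omd was at 5.38 and 5.34, Bmp4 at 6.12 and 6.72, and Sparc at 11.16 and 11.23. Alpl was at 5.05 and 4.28 in co-culture.

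Away from the matched band, the arrays labelled alone sat between the other groups. Their mean lay between the means of co-culture and DA3 alone for 5181 of the 5575 genes that were not matched, which is 92.9%. For genes more than 4 log2 units apart between those groups it lay between them in 82 of 82 cases, and for genes 0.5 to 1 apart in 89.9%. All 169 genes called over the whole table, 0.848% of 19938, came from the genes outside the band, 15 higher and 154 lower in co-culture. How much of each call follows from DA3 transcripts on the arrays labelled alone was not tested.

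**Figure D1:**
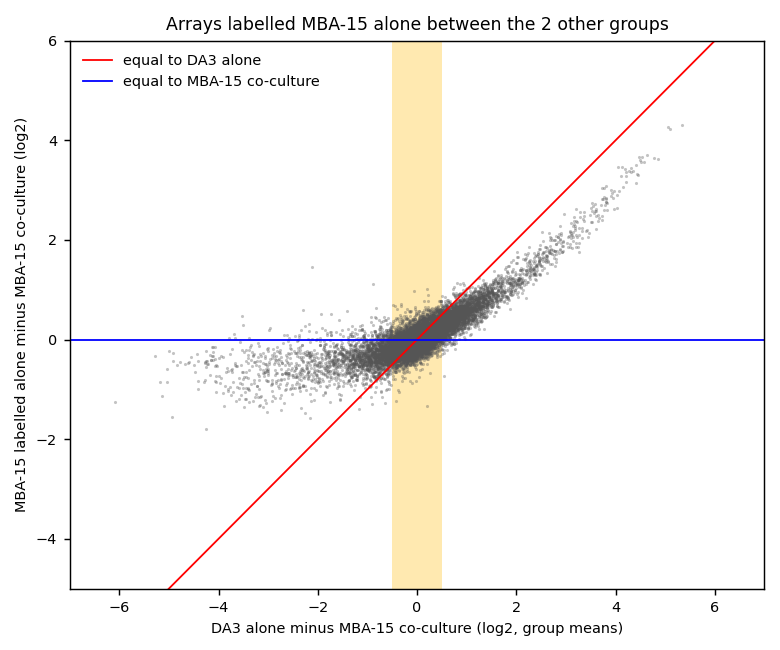
Each point is 1 of 19938 genes, with the mean of DA3 alone minus MBA-15 co-culture on the x axis and the mean of the arrays labelled MBA-15 alone minus MBA-15 co-culture on the y axis, both in log2 units. The shaded strip is the matched band of 0.5 to either side, and outside it 5181 of 5575 genes lie between the line of no difference from co-culture and the line of equality with DA3 alone.

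Among the 14363 matched genes, 0 passed the limma test at an adjusted p of 0.05 in either direction, beside 15 higher (0.0752%) and 154 lower (0.772%) over all genes tested. At an unadjusted limma p under 0.05, 153 matched genes were higher and 53 lower in co-culture, together 1.43% of them. At the level for naming the lean was the other way, with 27 higher and 41 lower, together 1.59%. Over all genes the counts were 655 and 1299, together 9.8%. The lowest limma adjusted p after Benjamini-Hochberg adjustment was 0.14, for Tyw3, an enzyme of transfer RNA modification that was dim at 4.43 and 4.46 in co-culture and 3.92 and 3.84 in the arrays labelled alone. The band shares the co-culture arrays with the comparison. The median half-width of the 95% interval was 0.38 over matched genes and 0.6 at the level for naming. Smaller changes could not be resolved. The intervals are not adjusted for the number of genes tested, so larger changes could also go uncalled. DA3 transcripts on the arrays labelled alone can shrink a change of MBA-15 cells, so these intervals do not bound that change. In a fit with a variance trend 3 dim matched genes passed as higher, Tyw3, Asphd1 and Tlr13, and without co-culture array 1 Vaultrc5 passed as higher and Acadl, Grn and Tgif1 as lower. A fit without 1 MBA-15 array leaves a single array in that group, which is assumed to vary like the other groups.

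The arrays of the groups did not overlap for 3375 matched genes with co-culture higher, 23.5%, against 22.3% of all genes. They did not overlap for 1021 matched genes with co-culture lower, 7.11%, against 16.1% of all genes. The share higher was close to that of the whole table. Among the 4276 matched genes at the level for naming the order was reversed, with 351 higher (8.21%) and 572 lower (13.4%).

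H2bc3 headed the matched genes that were higher in co-culture. It encodes a histone H2B of the replication-dependent cluster. It was at 7.59 and 9.48 in co-culture, 7.49 and 7.13 in the arrays labelled alone, 7.81 and 8.42 for DA3 alone, and 8.16 and 9.44 for the DA3 fraction of the co-culture. Co-culture array 2 and DA3 co-culture array 2 stood high, while co-culture array 1 was within 0.10 of the array labelled alone from the same assay. Its change was 1.23 ± 0.67 (SE, n = 2 against 2), with a limma adjusted p of 0.657 after Benjamini-Hochberg adjustment. H2ac4, a histone H2A gene of the same cluster, was at 8.54 and 9.30 in co-culture, 8.24 and 8.06 in the arrays labelled alone, and 8.61 and 8.66 in DA3 alone. H4c3, a histone H4 gene, was at 5.89 and 7.72 in co-culture, 5.91 and 5.60 in the arrays labelled alone, 6.20 and 6.70 for DA3 alone, and 6.27 and 7.98 for the DA3 fraction of the co-culture. As with H2bc3, the second arrays of both co-culture fractions stood highest. These arrays do not share an assay number, which is 3 for MBA-15 co-culture array 2 and 5 for DA3 co-culture array 2. DA3 co-culture array 1, which carries assay number 3, was lower, at 8.16 for H2bc3 and 6.27 for H4c3. These genes have near-identical copies, so their probe sets may read several of them, and those annotated to several histone symbols were not used.

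The promoters of H2bc3 and H2ac4 are shown because both histone genes were among the 10 highest matched genes and lie close together. They are RefSeq sequences of the GRCm38.p6 assembly from 250 bases before to 50 after the start of the gene, both on the plus strand of chromosome 13. Capitals mark the octamer ATTTGCAT or ATGCAAAT, the CCAAT box as CCAAT or ATTGG, and the TATA box as TATAAA, searched as TATAAA or TTTATA, and the marked motifs do not overlap.
H2bc3, chr13:23746484-23746783: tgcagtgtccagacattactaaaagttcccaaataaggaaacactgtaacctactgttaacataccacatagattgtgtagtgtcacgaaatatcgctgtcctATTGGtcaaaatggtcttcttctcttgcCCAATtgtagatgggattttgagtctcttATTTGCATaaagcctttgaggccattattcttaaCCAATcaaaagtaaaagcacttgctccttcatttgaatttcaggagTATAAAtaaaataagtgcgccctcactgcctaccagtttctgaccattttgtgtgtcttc
H2ac4, chr13:23750838-23751137: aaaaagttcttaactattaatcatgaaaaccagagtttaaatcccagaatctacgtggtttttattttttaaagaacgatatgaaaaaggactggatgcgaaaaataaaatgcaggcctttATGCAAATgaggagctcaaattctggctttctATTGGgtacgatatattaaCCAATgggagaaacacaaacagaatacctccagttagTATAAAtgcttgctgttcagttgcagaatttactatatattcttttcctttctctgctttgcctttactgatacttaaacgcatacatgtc

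Of the 17 matched histone genes, 15 were in the promoter table. The octamer was in 5 of the 15 and in 1.74% of all 32851 promoters, the CCAAT box in 12 and in 37.4%, and the TATA box in 11 and in 13.6%. A match describes these letters only.

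For every gene of this rank both co-culture arrays lay above both arrays labelled alone, because the ranking required it. Utp20, a component of the particle that processes the small ribosomal subunit RNA, was at 7.73 and 8.28 in co-culture, 7.21 and 7.34 in the arrays labelled alone, and 7.83 and 7.60 in DA3 alone. Its change of 0.73 ± 0.20 (SE, n = 2 against 2) had a limma adjusted p of 0.248 after Benjamini-Hochberg adjustment. Btaf1, an ATPase that removes the TATA-binding protein from DNA, was at 7.71 and 8.22 against 6.95 and 7.67. The arrays of the groups were well apart for Utp20 and only just apart for Btaf1. Gpatch8, a protein with a G-patch domain, was at 7.10 and 7.28 against 6.31 and 6.77, a change of 0.65 ± 0.17. Its other probe sets gave changes between 0.05 and 0.85, all of 1 sign. Fut11, a fucosyltransferase family member, was at 6.64 and 7.0 against 5.81 and 6.07, but a second probe set had a change of 0.11. Myo9a, an unconventional myosin, was at 7.29 and 8.30 against 6.79 and 7.21, with changes of the same sign for all its probe sets. Jcad, a protein of endothelial cell junctions, was at 6.76 and 7.03 against 6.20 and 6.30. Usp17ld, one of a family of near-identical deubiquitinase genes and so uncertain, was at 9.41 and 9.25 against 8.34 and 8.65. Hes1, a transcriptional repressor induced by Notch, was at 7.95 and 6.95 against 6.74 and 6.86. For Hes1 it was co-culture array 1 that stood high, with array 2 only 0.09 above its counterpart.

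The 10 matched genes lowest in co-culture differed more within assay 3, that is between the second arrays, than within assay 4. Acadl, the mitochondrial dehydrogenase of long-chain fatty acids, was at 8.68 and 7.77 in co-culture, 9.10 and 9.09 in the arrays labelled alone, and 8.71 and 8.74 in DA3 alone. The arrays labelled alone agreed closely and lay above all the others, and co-culture array 2 was the lowest. The change was -0.87 ± 0.28 (SE, n = 2 against 2), with a limma adjusted p of 0.336 after Benjamini-Hochberg adjustment, which became 0.046 without co-culture array 1. Mtch1, a mitochondrial outer membrane protein, was at 9.03 and 7.61 against 9.06 and 9.08, and Cbr2, a carbonyl reductase, at 8.07 and 6.87 against 8.25 and 8.25. In both, co-culture array 1 lay near the arrays labelled alone and array 2 far below. Array 2 was also the lower one for Mcrip1, a regulator of corepressor binding, at 7.09 and 6.22 against 7.46 and 7.40, and for Sh3gl1, an endophilin of membrane uptake, at 7.57 and 6.52 against 7.81 and 7.62. Rras, a small GTPase of adhesion, was at 7.74 and 6.95 against 7.92 and 8.09. Camta1, a calmodulin-binding transcription activator, was at 7.53 and 6.69 against 7.77 and 7.99, but its 3 dimmer probe sets had changes from 0.08 to 0.34. Mzt2, a component of the microtubule-nucleating complex, was at 6.41 and 5.66 against 6.83 and 6.78. Kng2, a kininogen, and Nr4a1, an immediate early nuclear receptor, owed their place to 1 array labelled alone. Kng2 was at 5.56 and 5.38 against 5.75 and 7.15, and Nr4a1 at 5.65 and 5.46 against 5.74 and 6.71.

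**Figure D2:**
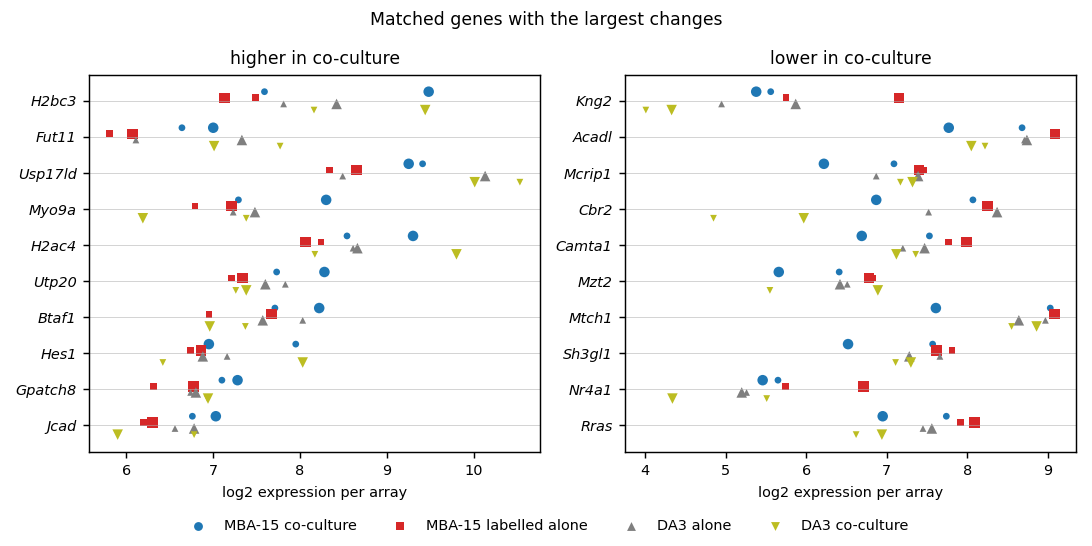
Log2 expression on each array of the 10 matched genes highest and the 10 lowest in co-culture relative to the arrays labelled alone, by group, with the smaller symbol for array 1 and the larger for array 2. The ranking required the co-culture and labelled-alone arrays to be apart, and the limma adjusted p values of all 20 lie between 0.234 and 0.775.

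The first array of both MBA-15 groups carries assay number 4 in its description and the second carries 3, so the change could be read once within each assay. The labels do not say what the assay number stands for. Of the matched genes, 478 were over 0.5 higher in co-culture within assay 4 and 731 within assay 3, but only 20 within both, 0.139% against 1.42% of all genes. For co-culture lower the counts were 282, 1015 and 10, the last being 0.0696% against 4.00% of all genes. Past a size of 1 in both assays there were 0 matched genes in either direction, against 17 (0.0853%) and 307 (1.54%) over all genes. More matched genes lay past 0.5 in opposite directions than in the same one, with 136 higher in assay 4 and lower in assay 3, and 76 the other way. Across matched genes the Pearson correlation between the changes of both assays was -0.24, and it was 0.40 across all genes. The band holds the co-culture mean near DA3 alone, so it leaves out genes whose co-culture arrays were both shifted the same way. The counts and the correlation of matched genes are therefore partly set by the selection. Genes are not independent, and each assay's change comes from 1 pair of arrays, so these are descriptions.

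The matched genes past 0.5 in both assays, at the level for naming, were 16 higher and 7 lower. Rab11a, a GTPase of recycling endosomes, was at 7.72 and 7.64 in co-culture, 8.28 and 8.27 in the arrays labelled alone, and 8.18 and 7.90 in DA3 alone. Replicates of Rab11a differed by less than 0.10 in each MBA-15 group, and the change was -0.60 ± 0.14 with a limma adjusted p of 0.175 after Benjamini-Hochberg adjustment. Lower beside it were Cnot8, a deadenylase of the CCR4-NOT complex, at 8.27 and 8.13 against 8.79 and 8.67, and Ssu72, a phosphatase of RNA polymerase II, at 7.35 and 7.11 against 7.90 and 7.69. Idh3b, a subunit of the mitochondrial isocitrate dehydrogenase, was at 9.01 and 8.49 against 9.51 and 9.12. Cope, a coatomer subunit of vesicle transport, was at 8.70 and 8.42 against 9.25 and 8.97. Med9 and Tmem179b completed the 7. The 16 higher genes included Utp20, Btaf1, Gpatch8, Fut11, Usp17ld, Myo9a and Jcad from the ranks above. Further members were Mdn1, a large ATPase of ribosome assembly, at 7.52 and 7.70 against 7.0 and 7.01, and Birc6, a very large ubiquitin ligase that inhibits apoptosis, at 8.59 and 9.29 against 7.87 and 8.74. Cdk13, a kinase of RNA polymerase II, was at 7.35 and 8.07 against 6.47 and 7.40, and Vps13a, a lipid transfer protein, at 7.17 and 8.14 against 6.61 and 7.54. For Birc6, Cdk13 and Vps13a array 2 was the higher one in both groups, so the groups were apart within each assay but overlapped across the 4 arrays.

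**Figure D3:**
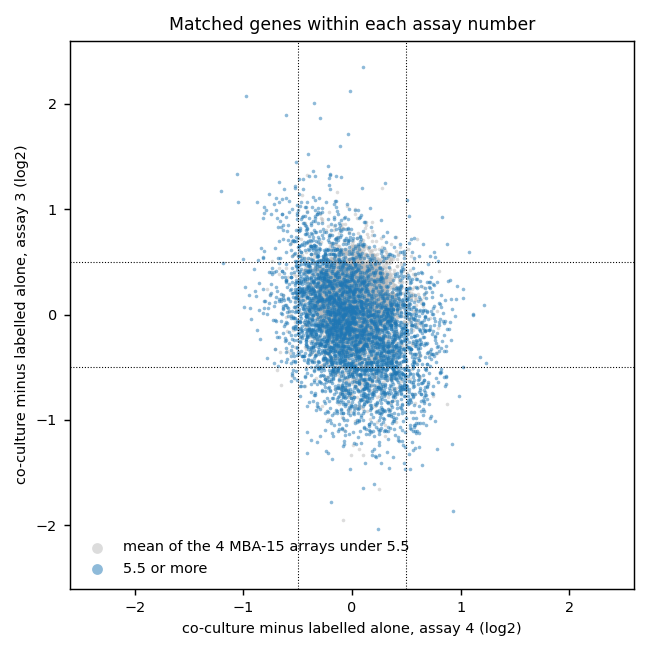
Change of each of the 14363 matched genes within assay 4 (x axis) and within assay 3 (y axis), in log2 units, with dotted lines at 0.5 to either side. Of these genes 20 lie past both lines at upper right and 10 at lower left. The cloud leans the other way, with a Pearson correlation of -0.24, which the choice of the band partly sets.

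Gene span went with the difference between assays, an observation made after the values were seen. Among matched genes at the level for naming, ordered by the length of the gene on the chromosome, the shortest of 5 equal parts had a median span of 4718 bases and the longest 101576. Within assay 4 the median change ran from -0.16 in the shortest part over -0.11, -0.02 and 0.09 to 0.31 in the longest. Within assay 3 the median change ran from 0.04 over -0.08, -0.09 and -0.13 to -0.14. Relative to DA3 alone, array 1 labelled alone ran from 0.11 in the shortest part to -0.24 in the longest. Array 2 labelled alone ran the other way, from -0.07 to 0.10. Co-culture array 1 stayed between -0.04 and 0.03. The band holds the co-culture mean near DA3 alone, so these values cannot show which array carried the order. Of the 16 genes past 0.5 higher in both assays, 12 were in the longest part. The median span of the 16 was 84230 bases, against 24888 for matched genes and 15093 for the 7 lower genes. The part of RNA quality or of the assay in these values was not tested.

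The histone list as a whole differed by assay. Of its 21 measured members 17 were matched and 0 were called. Their median change was 0.01 within assay 4 and 0.72 within assay 3, beside 0.01 and 0.12 for all matched genes. Within assay 3, 11 of the 17 were over 0.5 higher, against 9.20% of all genes, and 0 within assay 4, against 6.05%. The members not over 0.5 within assay 3 included H1f5 at 0.17 and H4c9 at -0.02. Of the 14363 matched genes, 731 were over 0.5 higher and 1015 lower within assay 3, and 478 and 282 within assay 4. In the other proliferation lists, of 27 matched DNA replication genes 5 were over 0.5 higher and 2 lower within assay 3. Of 18 matched mitosis genes 2 were higher and 0 lower. The shares of all genes within assay 3 were 9.20% higher and 17.6% lower. Mki67, the proliferation marker, was at 8.57 and 8.84 in co-culture and 8.15 and 8.63 in the arrays labelled alone. Orc6, of the origin recognition complex, was at 7.27 and 7.24 against 7.99 and 7.29. Mcm10, a replication initiation factor, was at 6.94 and 7.36 against 6.87 and 6.66.

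The lists of the unfolded protein response, lysosome, cholesterol synthesis and hypoxia had medians below 0 within assay 3 and near the matched median within assay 4, with 0 matched members called. Of 19 matched genes of the unfolded protein and ATF4 response, 8 were over 0.5 lower and 1 higher within assay 3. The shares were 17.6% and 9.20% of all genes, and 1015 and 731 of the 14363 matched genes. The median of the 19 was -0.47 within assay 3 and -0.04 within assay 4. Sdf2l1, a cofactor of chaperones in the endoplasmic reticulum, was at 6.59 and 6.09 in co-culture and 6.95 and 6.92 in the arrays labelled alone. Chac1, a glutathione-degrading enzyme induced by ATF4, was at 6.25 and 5.22 against 6.29 and 6.12, so that only co-culture array 2 was apart. Pdia4, a disulfide isomerase, was at 9.32 and 8.99 against 9.33 and 9.78. The 12 matched lysosome and autophagy genes had medians of -0.01 in assay 4 and -0.45 in assay 3, and the 11 of cholesterol synthesis -0.06 and -0.31. Fdps, which makes farnesyl diphosphate, was at 7.79 and 6.57 against 8.12 and 7.47. Of 21 matched hypoxia and glycolysis genes 8 were over 0.5 lower within assay 3, against the same shares, and 1 was higher.

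Immediate early genes and TGF-beta targets had medians of opposite sign in the assays. The 15 matched immediate early genes had a median change of 0.22 within assay 4, with 4 over 0.5 higher against 6.05% of all genes, and -0.45 within assay 3, with 7 over 0.5 lower against 17.6%. Of the 14363 matched genes, 478 were over 0.5 higher within assay 4 and 1015 over 0.5 lower within assay 3. The 8 matched TGF-beta targets had medians of 0.28 and -0.45. Tgif1, a corepressor of SMAD signalling, was at 7.43 and 5.98 in co-culture, 7.21 and 7.33 in the arrays labelled alone, and 7.07 and 6.99 in DA3 alone. Co-culture array 1 was thus the highest of the 6 and array 2 the lowest by more than 1. Its limma adjusted p after Benjamini-Hochberg adjustment was 0.744 and became 0.046 without co-culture array 1, with a change of -1.29. Mmp14, a membrane-bound matrix metalloproteinase, was at 9.01 and 7.23 against 8.54 and 8.64. For Mmp14 the co-culture arrays lay on either side of both arrays labelled alone.

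Mitochondrial and ribosomal genes also took opposite signs. The 17 matched genes of mitochondrial respiration had a median of -0.32 within assay 4 and 0.28 within assay 3. In assay 3, 7 were over 0.5 higher and 4 lower, against 9.20% and 17.6% of all genes and 731 and 1015 of the 14363 matched genes. Ndufv1, a subunit of complex I, was lower in both assays, at 8.04 and 7.91 in co-culture and 8.48 and 8.59 in the arrays labelled alone. The 19 matched ribosomal protein genes had medians of -0.14 and 0.14. Rpl27 was at 9.31 and 10.64 against 9.52 and 9.41, and at 9.56 and 10.10 for DA3 alone, so co-culture array 2 was the highest of these 6, and its 4 probe sets had changes between 0.33 and 0.57.

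Lists with many genes outside the matched band left few genes to read. Of 33 measured interferon response genes, 32 were over 0.5 higher in MBA-15 co-culture than in DA3 alone, against 2427 of all 19938 genes. Line and culture differ together in that comparison and cannot be told apart. The 1 matched gene was Isg20, an exonuclease, at 6.55 and 6.25 in co-culture and 6.94 and 6.63 in the arrays labelled alone. Of 37 extracellular matrix genes 7 were matched and 31 had a labelled-alone mean between the other groups. Of all 19938 genes 14363 were matched and 10350 had such a mean. Of 27 stromal markers 7 were matched, among them Mme, a cell surface peptidase of stromal cells, at 7.65 and 7.34 against 7.65 and 8.17. Cxcl5, a neutrophil-attracting chemokine and 1 of 11 matched chemokine and cytokine genes, was at 9.32 and 9.14 against 9.67 and 9.64, apart in each assay by 0.34 and 0.50. None of the matched members passed the limma test.

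**Figure D4:**
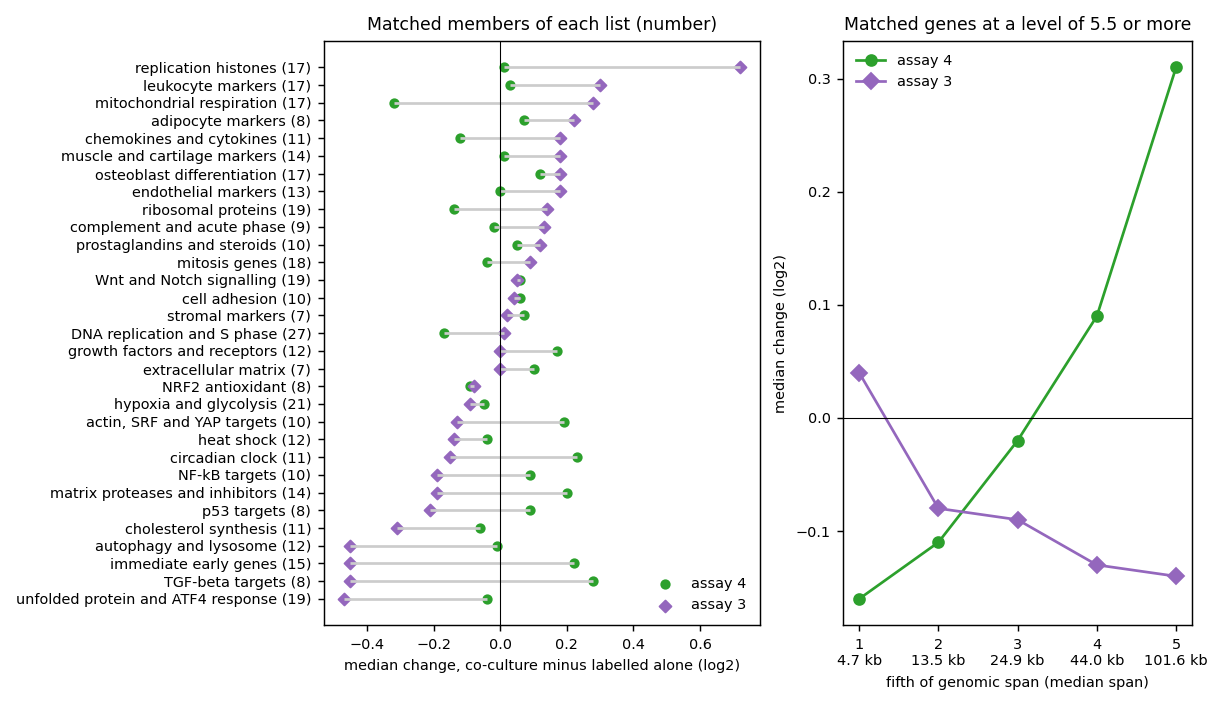
Left, the median change of the matched members of each gene list with at least 7 of them, within assay 4 (circles) and assay 3 (diamonds), in log2 units, with the number of matched members after each name. Right, the median change by genomic span, in 5 equal parts, for matched genes at a level of 5.5 or more. The histone list is at 0.01 and 0.72, and the longest part at 0.31 and -0.14.

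Genes of the arrays labelled alone that lay outside the span of the other groups did so by small margins. The 277 above were 1.39% of all genes and the 1535 below 7.70%. With a margin of 0.25 there were 9 (0.0451%) and 7 (0.0351%), and with a margin of 0.5 there were 0 of each. The arrays of DA3 co-culture, read against the same 4 arrays, lay beyond that margin of 0.5 for 68 and 230 genes, and this difference in number was not tested. Of the 1535 below, 1447 were under the level for naming, with a median level of 3.81, near the floor of the arrays. At the level for naming 182 were above and 88 below. How many genes would lie outside from the spread between arrays alone was not tested. The values chose these genes, so what follows is a description without a test.

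Sar1b led the genes above. This GTPase, which starts COPII vesicle budding, was at 9.82 and 9.72 in the arrays labelled alone, 9.30 and 9.28 in co-culture, and 9.31 and 9.20 in DA3 alone, with a gap of 0.408 to the nearest array. Ppox, an enzyme of heme synthesis, was at 6.43 and 6.49 against 6.05 and 5.75 in co-culture and 5.69 and 5.63 in DA3 alone. Anxa1, a calcium-dependent membrane protein that dampens inflammation, was at 11.48 and 11.43 against 11.05 and 10.91, and 11.14 and 11.04. For these 3 genes the arrays labelled alone lay closer to each other than to any array of the other groups. Slc31a2, of the copper transporter family, was at 6.28 and 6.29, with the other 4 arrays between 5.77 and 5.99. Tmem185a was at 8.32 and 8.38, Amn1 at 7.40 and 7.46, and Wbp1, a WW domain-binding protein, at 7.56 and 7.58, and Wbp1 was the only one of the 10 outside the matched band. Hibadh, an enzyme of valine breakdown, was at 8.48 and 8.45 against 8.07 and 7.58 in co-culture, but its dimmer probe set had a change of 0.68 instead of -0.64. Acadl and Mzt2, described above, completed the 10.

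Pramel27, of the Prame-like family, led the genes below with a gap of 0.339, at 5.48 and 5.24 in the arrays labelled alone, 5.92 and 5.83 in co-culture, and 5.82 and 5.88 in DA3 alone. Lin54, the DNA-binding subunit of the DREAM complex of cell cycle genes, was at 7.09 and 7.20 against 7.62 and 7.50, and 7.56 and 7.38. Nup205, a scaffold of the nuclear pore, was at 8.42 and 8.56 against 8.74 and 9.25, and 8.72 and 8.83. Mcm3ap, a messenger RNA export factor, was at 6.14 and 6.23 with the other arrays between 6.38 and 6.62. Gaps here were between 0.149 and 0.339. Prdm4, a zinc finger protein, was at 6.83 and 6.92 against 7.09 and 7.53 in co-culture. Drd1, a dopamine receptor, at 5.67 and 5.75, and Rin1, a Ras effector, at 5.72 and 5.70, were near the level limit. H2ac4, Utp20 and Jcad were also below, since their arrays labelled alone lay under both other groups. At the limits, Abhd5 was above the highest other array by 0.001 and Fah just missed it, while H2ac15 was below the lowest by 0.001 and Rps19-ps3 just missed it. At the matched band Cfap300 was inside at 0.5 and Ap2a2 outside at 0.501.

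**Figure D5:**
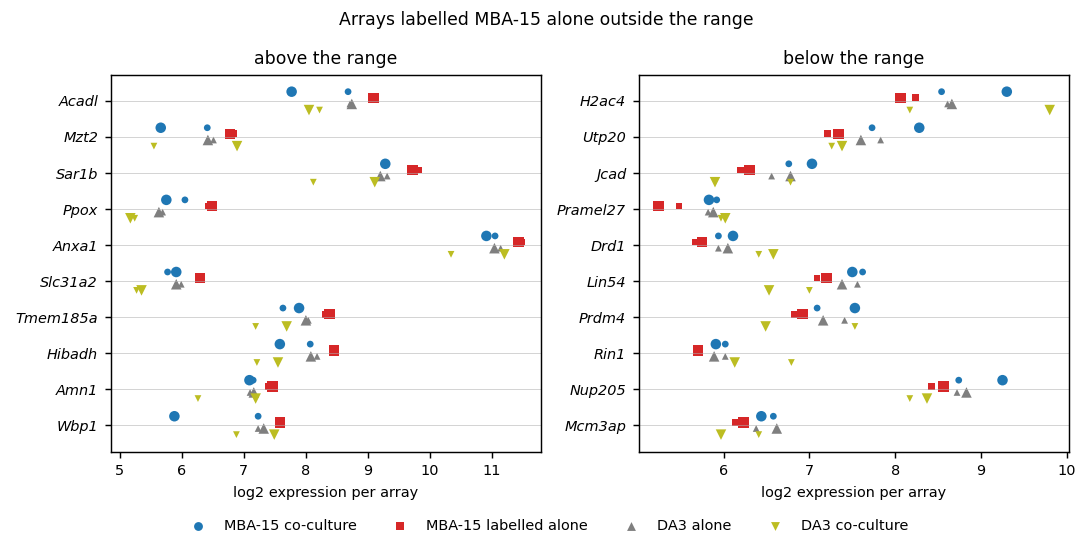
Log2 expression on each array of the 10 genes furthest above and the 10 furthest below the span of MBA-15 co-culture and DA3 alone, by group, with the smaller symbol for array 1 and the larger for array 2. The arrays labelled alone lie outside by at most 0.408 above and 0.339 below.

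Genes chosen past 0.5 within 1 assay were read again on the other. Of 48 genes over 0.5 above both other arrays of assay 4, 6 were above at all in assay 3, 12.5% against 19.4% of all genes. Of 309 chosen in assay 3, 43 were above in assay 4, 13.9% against 23.4%. Of 245 chosen below in assay 4, 21 were below in assay 3, 8.57% against 37.5%, and of 124 chosen in assay 3, 28 were below in assay 4, 22.6% against 29.7%. Of all genes chosen past 0.5 in 1 assay, 0 were past 0.5 on the same side in the other. With a margin of 0.25 the shares read on the same side were 18.6% against 19.4% and 16.0% against 23.4% above, and 17.1% against 37.5% and 33.0% against 29.7% below, with the genes chosen in assay 4 first. Only the last share, 361 of 1095 genes, was over that of all genes. Past the margin of 0.25 itself the shares were 6.20% against 5.84% and 3.44% against 3.24% above, and 3.67% against 5.49% and 3.65% against 5.47% below.

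Single arrays went further. On array 2 labelled alone 10 genes were at least 1 above all 4 arrays of co-culture and DA3 alone, a count chosen after the values were seen, and on array 1 there were 0. Mmp13, an interstitial collagenase of bone, was at 10.02 on that array and at 7.23 on array 1, with 7.38 and 6.97 in co-culture and 4.26 and 5.86 in DA3 alone. Vnn1, a pantetheinase, was at 9.66 and 4.90 in the same order, and at 5.05 and 8.32 in co-culture, so array 2 was high in both MBA-15 groups. Kng1, a kininogen, was at 7.34 against 5.29. Steap4, a metalloreductase, was at 6.92 against 4.70, and Fmo1, a flavin monooxygenase, at 6.02 against 3.91. Mpeg1, a pore-forming protein of macrophages, was at 6.18 against 4.11, and Ces1a, a carboxylesterase, at 5.31 against 3.90. Aox3, an aldehyde oxidase, was at 5.69 against 3.62. Without array 1 labelled alone it passed as lower in co-culture, with a limma adjusted p of 0.0188 after Benjamini-Hochberg adjustment, but that fit leaves this high array as the only one of its group. Kng2 and Nr4a1 completed the 10. In the other direction Tab2, an adaptor of TAK1 kinase, was at 7.23 on array 1 labelled alone and at 8.52 on array 2. Of the matched genes at the level for naming, the difference between the arrays of a group had an SD of 0.547 in co-culture, 0.404 labelled alone and 0.295 in DA3 alone.

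The response of DA3 cells to co-culture completed the design. The difference between the lines in the co-culture change passed the limma test for 12 genes, 0.0602% of the table. The MBA-15 change in this contrast uses the arrays labelled alone, so their DA3 transcripts enter it for genes outside the band. How much of these calls follows from them was not tested. Among matched genes 1 passed, Cpa4, a secreted carboxypeptidase. Cpa4 was at 3.84 and 3.95 on the MBA-15 co-culture arrays, 3.71 and 3.68 on those labelled alone, 3.92 and 3.86 for DA3 alone, and 6.49 and 6.30 for the DA3 fraction of the co-culture. It was near the array floor except in DA3 co-culture. The difference was -2.31, with a limma adjusted p of 0.0315 after Benjamini-Hochberg adjustment, and 0 genes passed with the assay number as a block. That block leaves DA3 co-culture with array 1 alone, since array 2 is the only one of assay 5. The unadjusted p for this difference was under 0.05 for 511 matched genes, 3.56%, and for 1260 of all genes, 6.32%.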

How the data were processed

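The authors deposited 1 log2 value per probe set and array, for which the submitters' processing notes name RMA and Partek 6.5 without parameters. Groups came from the sample titles and the assay number from the sample descriptions. Of 35556 probe sets, 21789 had 1 gene symbol in the platform annotation, 1621 several and 12146 none listed. The brightest probe set of each gene was kept, giving 19938 genes with no filter on dim ones. One model of 4 group means over all 8 arrays was fitted (limma 3.58.1 under R 4.3.3, functions lmFit and eBayes), leaving 4 residual degrees of freedom to which 2.6 were added by the prior. Reported p-values are two-sided, Benjamini-Hochberg adjusted over all genes, with a threshold of 0.05. The fit was also run on simulated arrays with independent noise and changes placed in MBA-15 co-culture only. These arrays held no DA3 transcripts on the arrays labelled alone and no assay differences, so that run does not bear on the matched genes. The number of arrays limits the precision.

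The genes, gene lists and limits were chosen with earlier results of these data known. Genes were named by rank at a level of 5.5 or more: the 10 largest matched differences in each direction with separate arrays, the 10 largest gaps on each side of the range, up to 3 members of each list, and Epcam. Predicted loci and olfactory or vomeronasal receptors were passed over. Genes with single-array excursions, those past 0.5 in both assays, Tyw3, Asphd1, Tlr13, Vaultrc5, Grn and Cpa4 were chosen after their values were seen. RefSeq GRCm38.p6 tables gave spans and promoters.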

Additional observations from a re-analysis of the deposited data

Results flagged for a closer look

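Cpa4 was singled out because its co-culture change differed between the lines. The change in MBA-15 minus that in DA3 was -2.31 on the log2 scale, with a limma adjusted p of 0.0315 after Benjamini-Hochberg adjustment. Its change was 0.20 ± 0.13 in MBA-15 and 2.51 in DA3, and all 4 arrays of the MBA-15 groups lay between 3.68 and 3.95. With the replicate number or the assay number as a block 0 genes passed this test.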

How the results depend on the processing

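With the matched band drawn again for the arrays in use, a variance trend gave 3 matched genes higher, leaving out 1 array at a time gave 0 to 1 lower (Aox3, without array 1 labelled alone), and the other alternatives run gave 0. Among the 14363 matched genes of all arrays, a count added after seeing the data, leaving out co-culture array 1 gave 1 higher (Vaultrc5) and 3 lower (Acadl, Grn and Tgif1), and leaving out array 1 labelled alone gave 1 lower (Aox3). Over all genes the 169 calls became 28 with only the 4 MBA-15 arrays, 326 with a variance trend, 142 with the replicate block, 182 with the assay number as a block, and 13 to 187 with 1 array left out, the fewest without co-culture array 2. The 12 calls for the difference between the lines became 0 with the replicate block and 0 with the assay block. Neither block pairs the DA3 co-culture arrays with arrays of their own assay throughout, as given above for Cpa4. Deviations of same-numbered arrays from their group means correlated at 0.01, 0.213 and 0.135 between groups, so the pairs were not all related, although in these groups arrays of the same number also share an assay number.

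Genes above and below the range, 277 and 1535, became 9 and 7 with a margin of 0.25, and 0 and 0 with 0.5. They became 2894 and 6694 by group means, 721 and 2511 within each assay, and 154 and 72 at a mean level of 6 or more. With 1 array left out they were 398 to 2471 and 1935 to 5042, since fewer arrays bound or test the range.

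Of the genes named with their own alternatives, 11 of 73 changed sign when 1 array was left out. Their changes ranged from -1.36 to 0.42 for Mmp14, -1.29 to 0.16 for Tgif1, -0.98 to 0.04 for Chac1, -0.16 to 1.17 for Rpl27, -2.05 to 0.02 for Aox3, -1.81 to 0.41 for Steap4, -2.98 to 1.79 for Vnn1, -1.73 to 0.39 for Fmo1, -1.67 to 0.41 for Mpeg1, -1.10 to 0.31 for Ces1a and -0.09 to 1.20 for Tab2. Hibadh went to 0.02 with the mean of its probe sets.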
